A study of Mus musculus with 2 samples.

Results

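The SOX genes described here, from retinal progenitors to neurons, are 8 transcription factor genes, *Sox2*, *Sox4*, *Sox5*, *Sox6*, *Sox8*, *Sox9*, *Sox11* and *Sox12*. They were taken by symbol, and each had 1 row of the 28692 genes in both matrices, which also list 11 other genes named *Sox* and a number. All cells came from embryos at E14.5 of the heterozygous BAC strain Tg(Lhx4::EGFP)KN199Gsat/Mmucd, in which *Lhx4* regulatory DNA drives EGFP. GFP-positive retinas of 2 litters were pooled, dissociated and sorted into LHX4::GFP+ cells, labelled as cone photoreceptors, and LHX4::GFP− cells, the remaining retinal cells. Each gate was made into 1 droplet library, so both groups share the transgene, the stage and the suspension, and there were no replicates.

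SOX proteins bind DNA through an HMG box and are grouped by sequence. SOX2, of group B1, keeps neural progenitors undifferentiated and is needed in the embryonic retina for progenitor identity. SOX8 and SOX9, of group E, are found in retinal progenitors and later in Müller glia. SOX4, SOX11 and SOX12, of group C, switch on neuronal genes, and SOX4 and SOX11 together are needed for ganglion cell formation. SOX5 and SOX6, of group D, lack a transactivation domain of their own and act with partner proteins.

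Unique molecular identifiers (UMIs, each marking 1 captured transcript) were summed over the cells of a group. Levels are counts per 1000000 UMIs of that group (CPM), and the range in brackets is the exact 95% Poisson interval. After filtering, 3689 GFP+ cells held 15503658 UMIs (median 3894 per cell) and 3389 GFP− cells held 30094636 UMIs (median 8848 per cell). Each gate had 1 library, so an interval holds counting error alone and no difference between conditions could be tested. A level also cannot tell fewer transcribing cells from fewer transcripts per cell unless shares of cells are given beside it. A ratio is called higher or lower where it is at least 2-fold and its 95% interval does not hold 1, and the share of all genes called is given for each of the 8 comparisons in which the SOX genes are counted. Other ratios, within a group or over neurogenic RPCs, are values with no call. Counts of genes called in GFP− cones stand without a share of all genes, which was not taken for them. The limit of 3500 genes per cell, taken from the study, left out 1055 GFP− and 39 GFP+ cells. The 2 libraries shared 20 cell barcodes.

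Cells were grouped by marker UMIs. A cell with 3 or more UMIs of the cone genes *Thrb*, *Rxrg*, *Gngt2*, *Gnb3* and *Pdc*, of the retinal ganglion cell (RGC) genes *Pou4f1*, *Pou4f2*, *Isl1*, *Rbpms* and *Sncg*, or of the amacrine and horizontal cell (AC/HC) genes *Tfap2a*, *Tfap2b* and *Ptf1a* was put in that group, and a cell that passed more than 1 of these was left out as mixed. Of the other cells, those with 3 or more UMIs of *Neurog2*, *Olig2* and *Atoh7* are called neurogenic retinal progenitor cells (RPCs), and those with 5 or more of 4 progenitor markers, among them *Sfrp2*, *Fgf15* and *Hes1*, multipotent RPCs. The GFP− library gave 1740 multipotent RPCs, 613 neurogenic RPCs, 485 RGCs, 373 AC/HCs and 72 cones, and the GFP+ library gave 3609 cones, 97.8% of its cells. All other groups held fewer than 50 cells in a library, among them cells with only *Otx2* and *Crx* (37 GFP− and 21 GFP+ cells) and the 17 multipotent RPCs of the GFP+ library, and are given by size only. No threshold was reached by 51 GFP− and 8 GFP+ cells.

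Markers that took no part in the grouping followed these names. *Gnat2*, the cone transducin gene, stood at 176 CPM in GFP+ cones and 0.185 CPM in multipotent RPCs. *Lhx4* stood at 143 and 0.0618 CPM, but its regulatory DNA drives the sorted GFP. The sort thus fixes part of this difference, and *Lhx4* is no separate check on the group name. *Gap43*, a gene of growing axons, stood at 1891 CPM in RGCs and 25.6 CPM in multipotent RPCs. *Onecut2* stood at 812 CPM in AC/HCs against 5.38 CPM in multipotent RPCs, and *Dll1*, the Notch ligand of newly committed cells, at 89.8 CPM in neurogenic RPCs against 8.59 CPM in multipotent RPCs.

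Between the sort gates, 4 of the 8 genes were lower and 3 were higher in the GFP+ library. *Sox2* had 36.4 CPM (33.5 to 39.6) in the GFP+ library against 243 CPM (238 to 249) in the GFP− library, a ratio of 0.150 (0.137 to 0.163). *Sox9* stood at 9.55 CPM (8.07 to 11.2) and 66.7 CPM (63.8 to 69.6), a ratio of 0.143 (0.120 to 0.169). The progenitor genes were thus 6.68 and 6.98 times lower in the cone gate.

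*Sox8* had 1.68 CPM against 6.94 CPM, 4.14 times lower in the GFP+ library. *Sox11* stood at 188 CPM (182 to 195) and 741 CPM (732 to 751), 3.94 times lower (3.79 to 4.09). *Sox4*, the other abundant group C gene, had 1038 CPM (1022 to 1054) in the GFP+ library against 756 CPM (747 to 766), a ratio of 1.37 (1.34 to 1.40) that is under the 2-fold limit. Of the 2 abundant group C genes only *Sox11* was thus called between the gates.

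*Sox6* had 183 UMIs in GFP+ and 22 in GFP− cells, a ratio of 16.1 (10.3 to 26.4), and *Sox5* had 67 and 31 UMIs, a ratio of 4.20 (2.70 to 6.65). *Sox12* stood at 68.1 and 33.0 CPM, a ratio of 2.06 (1.89 to 2.25), which was 1.67 with TMM factors and 0.976 when UMIs per cell were compared without scaling. Over all 15236 genes with 10 or more UMIs, 22.1% were called higher and 15.1% lower in the GFP+ gate, with a median log2 ratio of 0.30. *Sox4* was at 0.649 in UMIs per cell, a scale on which the median of all genes was 1.08 lower in log2.

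**Figure D1:**
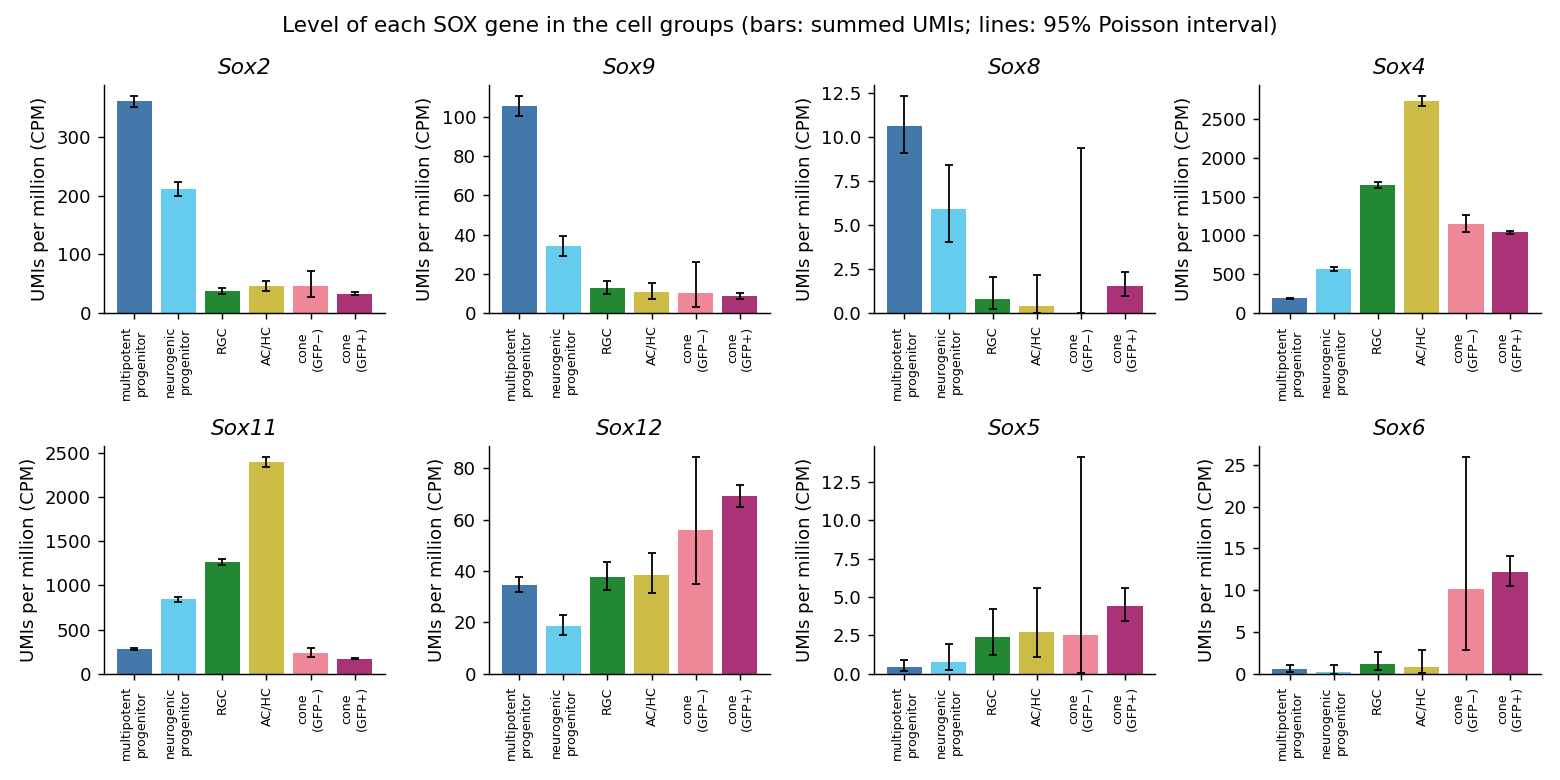
Level of each SOX gene, in CPM, in the 6 cell groups of at least 50 cells. Bars are summed UMIs over the cells of a group and lines are 95% Poisson intervals; *Sox2* is at 362 CPM in multipotent RPCs and 32.5 CPM in GFP+ cones, and *Sox11* is at 2402 CPM in AC/HCs and 171 CPM in GFP+ cones.

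Multipotent RPCs held the highest level of *Sox2*, *Sox9* and *Sox8*. *Sox2*, a single-exon gene (ENSMUSG00000074637, GRCm38 chr3:34650405-34652461, plus strand) that lies within the longer *Sox2ot* transcript on the same strand, stood at 362 CPM (352 to 371) in multipotent RPCs and 212 CPM (199 to 224) in neurogenic RPCs. It stood at 36.7 CPM (31.6 to 42.4) in RGCs, 45.9 CPM (38.0 to 54.9) in AC/HCs, 45.7 CPM (27.1 to 72.3) in GFP− cones and 32.5 CPM (29.7 to 35.6) in GFP+ cones. The progenitor groups stood apart from every neuron group, whereas the intervals of RGCs and GFP− cones overlapped those of all other neuron groups, and only AC/HCs and GFP+ cones did not overlap each other. The drop from multipotent to neurogenic RPCs was less than 2-fold, at a ratio of 0.585 (0.548 to 0.624).

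*Sox9* (3 exons, chr11:112782224-112787760, plus strand) was called lower already in neurogenic RPCs, where *Sox2* was not. It stood at 106 CPM (101 to 111) in multipotent RPCs, 34.0 CPM (29.2 to 39.4) in neurogenic RPCs, 12.6 CPM (9.71 to 16.2) in RGCs, 10.4 CPM (6.86 to 15.1) in AC/HCs, 10.2 CPM (2.77 to 26.0) in GFP− cones and 8.55 CPM (7.13 to 10.2) in GFP+ cones. Neurogenic over multipotent RPCs gave a ratio of 0.322 (0.274 to 0.375) for *Sox9*, an interval below that of *Sox2* for the same cells. *Sox8* (chr17:25565892-25570686, minus strand) stood at 10.6 CPM (9.10 to 12.3) in multipotent and 5.92 CPM (4.03 to 8.41) in neurogenic RPCs. It had 4 UMIs in RGCs, 1 in AC/HCs, 23 in GFP+ cones and 0 in the 72 GFP− cones, where 3 counts would be 7.62 CPM.

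In single cells the 2 progenitor groups again came first. With each cell thinned to 3200 UMIs, a *Sox2* UMI was found in 66.6% of multipotent RPCs, 41.1% of neurogenic RPCs, 7.87% of RGCs, 14.0% of AC/HCs and 9.20% of GFP+ cones. Unthinned, the shares were 92.4%, 66.7%, 18.8%, 22.3% and 11.1%, at median depths of 9366.5, 8350, 10554, 6759 and 3881 UMIs. A *Sox9* UMI was found after thinning in 29.0% of multipotent RPCs, 9.21% of neurogenic RPCs, 3.73% of RGCs, 2.96% of AC/HCs and 2.53% of GFP+ cones. Free RNA in a droplet library can give such UMIs in cells that do not make a transcript. Its part in the low shares was not tested. Other progenitor genes are set beside these genes below as a description.

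The *Sox2* promoter is printed for comparison with those of the group C genes further on, as the gene that is low in the neurons where they are high. It is the RefSeq window from 250 bases before to 50 bases after the start site (GRCm38.p6, chr3:34649745-34650044, plus strand), in lower case with each match to CCAAT, in either direction, in capitals.
Sox2: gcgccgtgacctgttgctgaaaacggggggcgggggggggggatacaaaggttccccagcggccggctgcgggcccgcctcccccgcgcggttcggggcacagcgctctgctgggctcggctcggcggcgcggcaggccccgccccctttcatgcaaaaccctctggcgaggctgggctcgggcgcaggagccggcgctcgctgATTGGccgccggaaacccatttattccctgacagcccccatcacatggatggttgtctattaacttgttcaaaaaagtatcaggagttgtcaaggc
It held 1 match to CCAAT, beginning 46 bases before the start, 1 E-box (CANNTG, the site class of bHLH factors) and 1 match to ACAAAG, the core letters that SOX proteins bind.

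**Figure D2:**
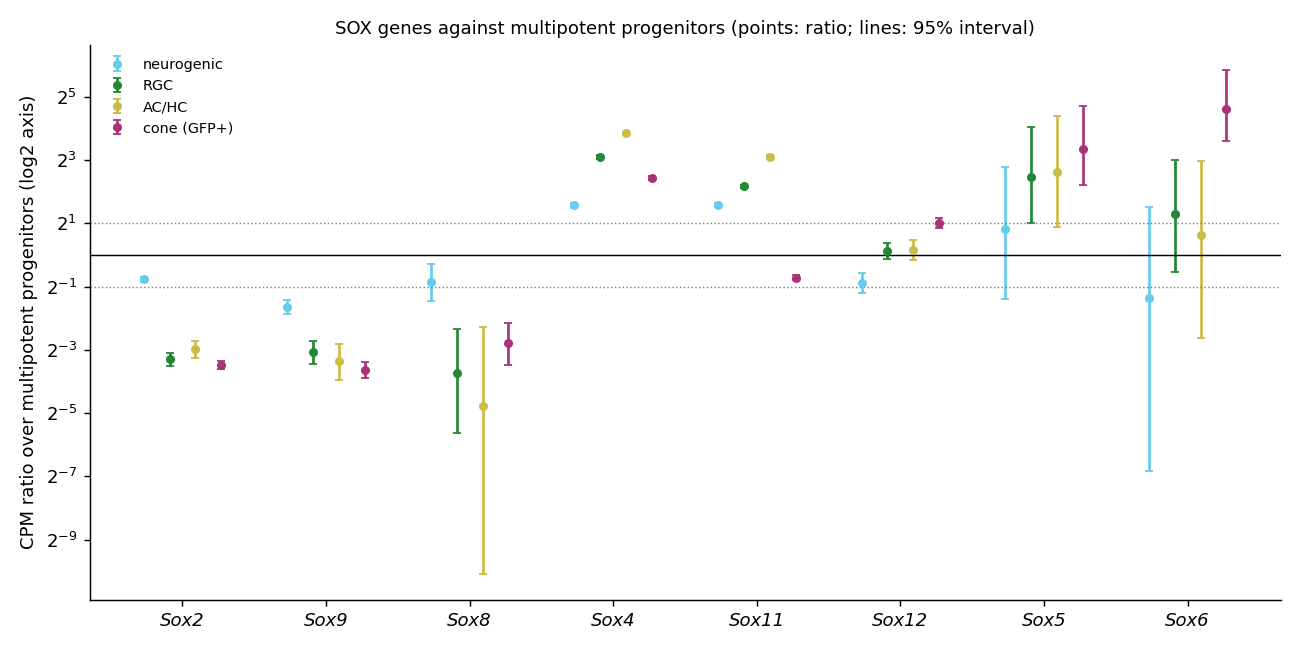
CPM ratio of each SOX gene over multipotent RPCs of the GFP− library, on a log2 axis, for neurogenic RPCs, RGCs, AC/HCs and GFP+ cones. Points are ratios, vertical lines are 95% intervals and dotted lines mark 2-fold; *Sox2*, *Sox9* and *Sox8* lie below 1 in all 4 groups, while *Sox11* lies at 8.54 in AC/HCs and 0.609 in GFP+ cones.

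Against multipotent RPCs, 1 of the 8 genes was lower and 2 were higher in neurogenic RPCs, where 6.34% of all genes were called lower and 4.82% higher. *Sox6* had fewer than 10 UMIs in this comparison and so could not be called against that share. *Sox4* and *Sox11* were the 2 that were higher, at 2.96 (2.82 to 3.12) and 2.99 (2.87 to 3.12). In RGCs 3 were lower and 3 higher, against 16.2% and 14.48% of all genes, and in AC/HCs likewise 3 and 3, against 14.2% and 16.1%. In GFP+ cones 3 were lower and 4 higher, against 15.1% and 28.0% of all genes, with a median log2 ratio of all genes of 0.41.

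*Sox2*, *Sox9* and *Sox8* were the genes called lower in RGCs, AC/HCs and GFP+ cones alike. In GFP+ cones *Sox2* was 11.1 times lower (10.1 to 12.2) and *Sox9* 12.4 times lower (10.3 to 14.9) than in multipotent RPCs. *Sox8* was 6.92 times lower there (4.46 to 11.2). The neuron groups drew on the same multipotent RPCs, so their ratios are not independent of each other.

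In GFP+ cones *Sox2*, *Sox9* and *Sox8* stood at a larger part of their multipotent level than most other progenitor genes. *Sox2* stood at 9.00% (8.19 to 9.87) of its multipotent level, *Sox9* at 8.08% (6.70 to 9.68) and *Sox8* at 14.4% (8.92 to 22.4). The progenitor genes used as markers stood lower, *Sfrp2* at 1.55%, *Hes1* at 0.358% and *Fgf15* at 0.292%, as did *Ccnd1* at 0.753%, *Hes5* at 1.40% and *Nr2e1* at 1.64%. Of these and the other genes of the progenitor list, 8 in all, only *Lhx2* at 30.5% and *Rax* at 121% stood above *Sox2*. The median of the list was 1.47%. GFP+ cones and multipotent RPCs come from different libraries, in which multipotent RPCs were 0.461% (GFP+) and 51.3% (GFP−) of the kept cells. The free RNA of each library was not measured, so its part in these percents was not tested.

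Those genes include 3 that set the multipotent group, which can raise their level in it and so lower their percent in other groups. No neuron group was set by a limit on them. The 72 cones of the GFP− library had *Sox2* at 12.7% (7.49 to 20.0) of the multipotent level beside *Sfrp2* at 2.48%, *Fgf15* at 2.63% and *Hes1* at 1.70%, with *Nr2e1* at 11.6%, *Hes5* at 13.3% and *Lhx2* at 31.8%, and the median of the list there was 7.11%. In RGCs and AC/HCs the progenitor list had medians of 8.43% and 9.82%, and *Sox2* stood at 10.1% and 12.7%. *Sox2* thus lay above the median of the list in these 4 groups of neurons, and farthest above it in GFP+ cones, the only group of the other library. In GFP− cones *Hes5*, *Lhx2* and *Rax* (119%) lay above *Sox2*. Single genes of the list lay far from its median, such as *Hes5* at 112% in AC/HCs.

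**Figure D3:**
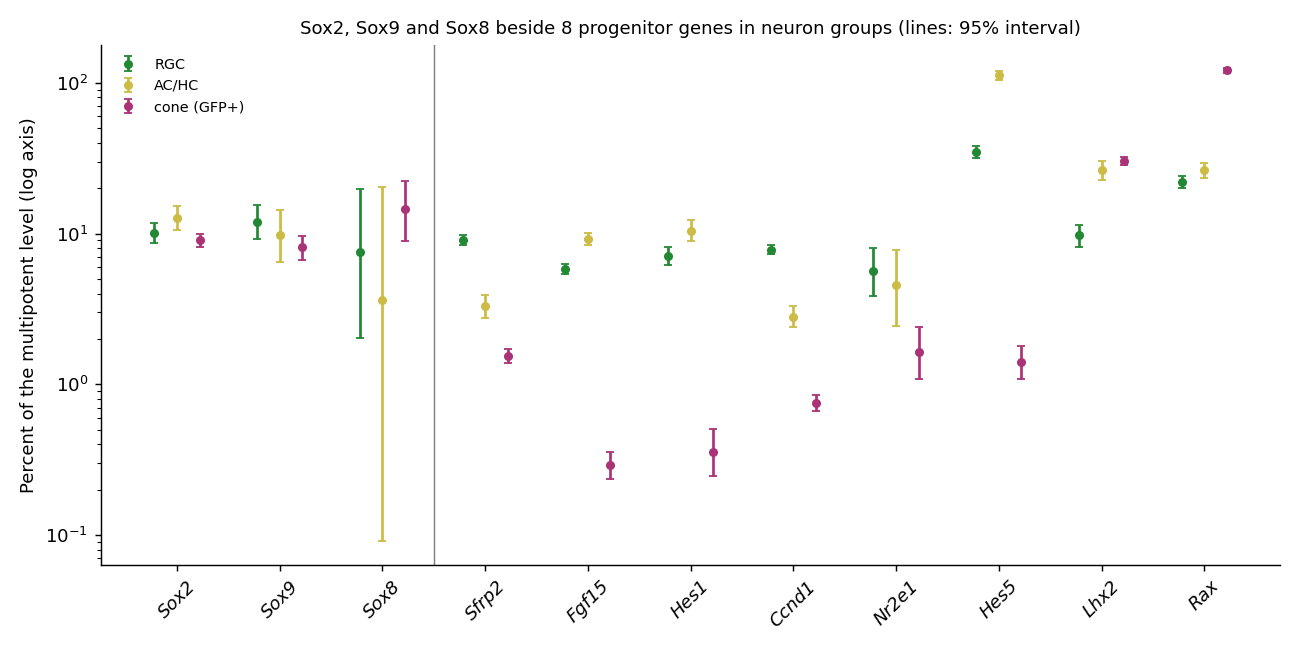
Level of *Sox2*, *Sox9*, *Sox8* and 8 other progenitor genes in RGCs, AC/HCs and GFP+ cones, as percent of the level in multipotent RPCs, on a log axis. Points are ratios of summed UMIs and lines are 95% intervals; in GFP+ cones the 3 SOX genes lie at 8.08% to 14.4%, above 6 of the 8 other genes.

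The *Sox2* of RGCs was carried by few cells, and part of those cells held most of the progenitor marker UMIs. Of 485 RGCs, 91 had a *Sox2* UMI, and 24 had 3 or more. The progenitor markers *Sfrp2*, *Fgf15* and *Hes1* summed to 1159 CPM in the 91 cells and 123 CPM in the other 394. Of the 1042 UMIs behind the first value, 999 lay in 39 cells with 3 or more of them, and 94 in 1 cell, whereas the other 52 cells with *Sox2* held 43. At least 1 marker UMI was found in 71 of the 91 cells. In the 397 RGCs with under 3 UMIs of those 3 markers, *Sox2* stood at 16.9 CPM, and in the other 88 at 125 CPM. The part of cells that are not RGCs in this level was not tested. With 5 marker UMIs in place of 3 to set a neuron group, *Sox2* in RGCs was at a ratio of 0.0426 (0.0331 to 0.0540) to multipotent RPCs, and with 2 at 0.281 (0.258 to 0.305).

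In AC/HCs the progenitor markers differed less between cells with and without *Sox2*. SOX2 is known to stay on in the cholinergic amacrine cells of the mature retina. Of 373 AC/HCs, 83 had a *Sox2* UMI, and the 3 markers summed to 403 CPM in them and 291 CPM in the other 290. In the 309 AC/HCs with under 3 UMIs of the 3 markers *Sox2* stood at 38.3 CPM, and in the other 64 at 79.4 CPM. Its ratio to multipotent RPCs was 0.127 (0.105 to 0.152), and 0.121 and 0.132 with groups set at 5 and at 2 UMIs. Over all settings tried the ratio ran from 0.0949 to 0.167. Without the gene limit *Sox2* stood at 60.1 CPM (51.5 to 69.8) in 390 AC/HCs. It stood at 66.9 CPM (45.2 to 95.6) in 75 GFP− cones.

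*Sox2* in AC/HCs over RGCs was 1.25 (0.984 to 1.58), but this comparison turned on how the groups were set. The ratio was 0.472 with groups set at 2 marker UMIs, 2.84 (2.08 to 3.90) at 5, and 2.90 (2.01 to 4.22) with groups set on thinned cells. *Sox9* moved likewise, from 0.824 to 0.410 and 2.02. The order of RGCs and AC/HCs for these genes is therefore not given.

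*Sox9* was found more often in RGCs with *Sox2* than in those without. After thinning, 9 of 38 RGCs with a *Sox2* UMI also had a *Sox9* UMI (23.7%, 11.4 to 40.2%), and 9 of 445 without one did (2.02%, 0.929 to 3.80%). Of the 9 cells with both, 8 had no *Atoh7* UMI. In AC/HCs the same shares were 1 of 52 (1.92%, 0.0487 to 10.3%) and 10 of 320 (3.12%, 1.51 to 5.67%). In GFP+ cones they were 6 of 280 (2.14%, 0.790 to 4.61%) and 71 of 2765 (2.57%, 2.01 to 3.23%). Multipotent RPCs had a *Sox9* UMI in 31.3% (28.6 to 34.0%) of cells with *Sox2* and 24.5% (21.1 to 28.2%) of cells without. Neurogenic RPCs had one in 12.8% (8.92 to 17.6%) and 6.70% (4.34 to 9.81%). In RGCs and multipotent RPCs the intervals for cells with and without *Sox2* did not overlap, and in neurogenic RPCs, AC/HCs and GFP+ cones they did. Unthinned, RGCs with *Sox2* held 42 *Sox9* UMIs. Of these, 39 lay in the 39 cells with 3 or more UMIs of *Sfrp2*, *Fgf15* and *Hes1*. The other 52 cells held 3 (5.90 CPM), and RGCs without *Sox2* stood at 5.14 CPM. The part of cells that are not RGCs in this difference was not tested.

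**Figure D4:**
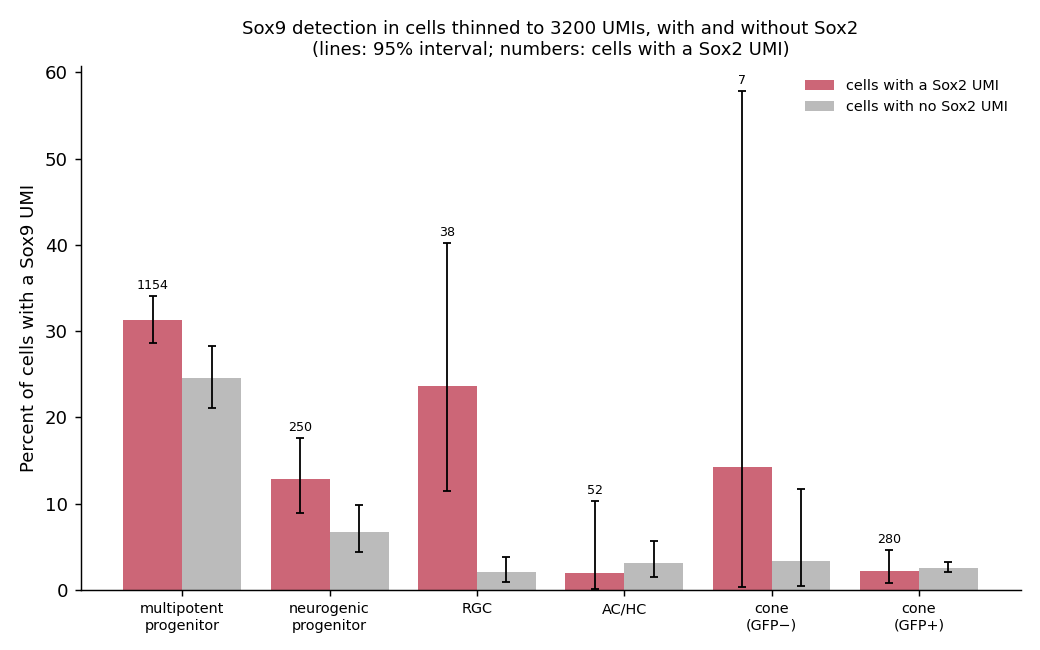
Percent of cells with a *Sox9* UMI among cells with and without a *Sox2* UMI, by cell group, after thinning each cell to 3200 UMIs. Lines are 95% exact binomial intervals and the numbers are cells with a *Sox2* UMI; in RGCs the bars stand at 23.7% and 2.02%, and in GFP+ cones at 2.14% and 2.57%.

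*Sox9* within the neuron groups was uneven. RGCs without a UMI of *Atoh7*, the proneural gene of early RGCs, had 49 *Sox9* UMIs (23.8 CPM, 193 cells) and those with one had 14 (4.78 CPM, 292 cells), a ratio of 4.98 (2.70 to 9.76). The most in 1 cell was 9. The same 3 progenitor markers also stood higher in RGCs without *Atoh7*, at 522 against 161 CPM, and their part in the ratio was not tested. AC/HCs with fewer than 3 UMIs of *Lhx1*, *Onecut1* and *Onecut2*, genes of horizontal cells, had 21 *Sox9* UMIs (28.7 CPM, 105 cells) and those with 3 or more had 6 (3.22 CPM, 268 cells), a ratio of 8.93 for those without over those with. Of the 21 UMIs, 6 came from 1 cell, and the 3 markers stood at 554 CPM without and 224 CPM with these genes. The summed level of *Sox2* differed less across either split, at 42.7 and 32.4 CPM without and with *Atoh7* and at 52.0 and 43.5 CPM without and with *Lhx1* or *Onecut*. Its spread over RGCs did differ. Cells with 3 or more *Sox2* UMIs were 17 of 193 without *Atoh7* (8.81%) and 7 of 292 with it (2.40%). Cells with any *Sox2* UMI were 31 and 60.

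*Sox3*, of group B1, stood at 13.5 CPM in multipotent RPCs and 1.74 CPM in GFP+ cones, 0.129 (0.0823 to 0.194) of the multipotent level, and *Sox1* at 3.65 CPM and 0.0668 CPM. *Sox13*, of group D, was at 10.3 CPM in multipotent RPCs and 4.97, 3.01, 3.85 and 1.40 CPM in neurogenic RPCs, RGCs, AC/HCs and GFP+ cones. *Sox21*, of group B2, had its UMIs in neurogenic RPCs (16, or 3.06 CPM) and AC/HCs (7, or 2.70 CPM), against 4 in multipotent RPCs (0.247 CPM). *Sox30*, a gene of male germ cells, had 55 UMIs in GFP+ cones, each in a different cell (3.67 CPM), a ratio of 4.57 (2.47 to 9.12) over the 13 UMIs of multipotent RPCs. Of the 11 other SOX genes, 4 had 10 or more UMIs in that comparison. Of these, 3 were lower, *Sox1*, *Sox3* and *Sox13*, as were 15.1% of all genes. *Sox30* was higher, as were 28.0% of all genes. These calls are for GFP+ cones. In the 72 GFP− cones, 4 of the other SOX genes could be compared with multipotent RPCs, and 1 was lower and 0 higher. No share of all genes was taken to set beside this count.

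A list of 12 genes held partners of SOX2 and POU, eye field and Notch pathway genes beside it. It included *Hes1*, which helped set the multipotent group, and this can raise the level of *Hes1* in that group and so lower its ratios over it. Of the 12, 10 could be compared in GFP+ cones. There 7 were lower and 0 higher than in multipotent RPCs, against 15.1% and 28.0% of all genes. In neurogenic RPCs 2 were lower and 0 higher (6.34% and 4.82% of all genes), in RGCs 6 lower and 1 higher (16.2% and 14.48%), and in AC/HCs 3 lower and 2 higher (14.2% and 16.1%). *Pax6*, with which SOX2 acts in eye development, stood at 588 CPM in multipotent RPCs, 965 in RGCs, 1735 in AC/HCs and 157 in GFP+ cones. *Pou3f1*, a POU factor gene, stood at 70.3, 181, 216 and 24.1 CPM in the same groups. Both were highest in AC/HCs and lowest in GFP+ cones of these 4 groups, and GFP− cones had 71.2 CPM of *Pou3f1*.

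Of the 5 Müller glia genes listed with SOX9 that could be compared with multipotent RPCs, 2 were lower in neurogenic RPCs, 3 in RGCs and 3 in AC/HCs, and 0 were higher in any of these, beside the 6.34%, 16.2% and 14.2% of all genes that were lower. *Slc1a3*, the glial glutamate transporter gene, stood at 139 CPM in multipotent RPCs, 30.0 in neurogenic RPCs, 6.82 in RGCs, 10.8 in AC/HCs and 16.2 in GFP+ cones. *Nfib* stood at 13.4 CPM in multipotent RPCs and 216 CPM in GFP+ cones, a ratio of 16.2 (14.1 to 18.7). In GFP+ cones the other 4 were lower, as were 15.1% of all genes. In the 72 GFP− cones 1 of the 5 was higher, 1 was lower and 3 were not called, with no share of all genes to set beside this. *Sox10*, which marks neural crest and oligodendrocyte lineages, had 0 UMIs in the kept cells of both libraries, which allows up to 0.194 CPM in the GFP+ and 0.0997 CPM in the GFP− library at 3 counts.

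*Sox4* and *Sox11* are single-exon genes on the minus strand. *Sox4* lies at chr13:28948919-28953713 and *Sox11* at chr12:27334264-27342574 (GRCm38). No 50-base stretch of the last 400 bases of any of the 8 genes' transcripts occurred in a transcript of another gene, so the 3′ tags tell the family apart. *Sox4* overlaps the lincRNA gene *Gm26735* on the other strand.

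Their promoters are shown because the genes are high together in RGCs and AC/HCs and part in cones. Both are windows from 250 bases before to 50 bases after the RefSeq start (GRCm38.p6, chr13:28953650-28953949 and chr12:27342669-27342968, minus strand), written 5′ to 3′ with matches to CCAAT in either direction in capitals.
Sox4: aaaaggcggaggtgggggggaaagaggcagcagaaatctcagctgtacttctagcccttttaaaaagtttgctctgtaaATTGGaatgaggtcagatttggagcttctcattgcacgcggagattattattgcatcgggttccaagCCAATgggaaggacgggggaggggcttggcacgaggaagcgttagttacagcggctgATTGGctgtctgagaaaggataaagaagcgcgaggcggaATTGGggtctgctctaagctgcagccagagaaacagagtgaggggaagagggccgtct
Sox11: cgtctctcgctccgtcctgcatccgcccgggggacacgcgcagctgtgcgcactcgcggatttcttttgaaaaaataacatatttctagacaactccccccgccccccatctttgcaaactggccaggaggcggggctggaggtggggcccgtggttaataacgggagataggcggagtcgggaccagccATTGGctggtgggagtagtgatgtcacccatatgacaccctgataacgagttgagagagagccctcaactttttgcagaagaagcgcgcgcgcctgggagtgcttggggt
*Sox4* held 4 matches, from 171 to 8 bases before the start, and *Sox11* held 1, at 60 bases before it. Of 32851 promoter windows of this length in the table, 37.4% held at least 1 match and 1.06% held 4 or more. E-boxes numbered 1 in *Sox4* and 2 in *Sox11* (72.3% of all windows hold 1), neither held ACAAAG (18.7% of windows do), and none of the capitals overlapped these motifs. A match of letters is a description of the window and not a binding site.

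*Sox4* was higher in neurogenic RPCs, RGCs, AC/HCs and cones than in multipotent RPCs. It stood at 191 CPM (184 to 198) in multipotent RPCs, 566 CPM (546 to 587) in neurogenic RPCs, 1649.6 CPM (1614 to 1686) in RGCs and 2740.2 CPM (2677 to 2805) in AC/HCs. GFP+ cones stood at 1039 CPM (1022 to 1055) and GFP− cones at 1154 CPM (1050.0 to 1265), between neurogenic RPCs and RGCs. Over multipotent RPCs the ratio was 8.63 (8.28 to 9.00) in RGCs, 14.3 (13.7 to 15.0) in AC/HCs and 5.43 (5.23 to 5.65) in GFP+ cones.

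*Sox11* was likewise higher in neurogenic RPCs, RGCs and AC/HCs, and was not in cones. It stood at 281 CPM (273 to 290) in multipotent RPCs, 841 CPM (816 to 866) in neurogenic RPCs, 1267 CPM (1236 to 1299) in RGCs and 2402 CPM (2343 to 2463) in AC/HCs. GFP− cones stood at 234 CPM (188 to 287) and GFP+ cones at 171 CPM (165 to 178). Over multipotent RPCs the ratio was 4.50 (4.34 to 4.68) in RGCs, 8.54 (8.22 to 8.87) in AC/HCs and 0.609 (0.580 to 0.639) in GFP+ cones, and GFP− cones gave 0.831 (0.669 to 1.02).

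In cones *Sox11* was therefore at or below the level of multipotent RPCs. Against neurogenic RPCs, GFP+ cones had *Sox11* 4.91 times lower and *Sox4* 1.83 times higher. Every setting kept *Sox11* in GFP+ cones below multipotent RPCs and *Sox4* above them. With TMM factors the *Sox11* ratio was 0.477, past the 2-fold limit, and in UMIs per cell 0.272.

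**Figure D5:**
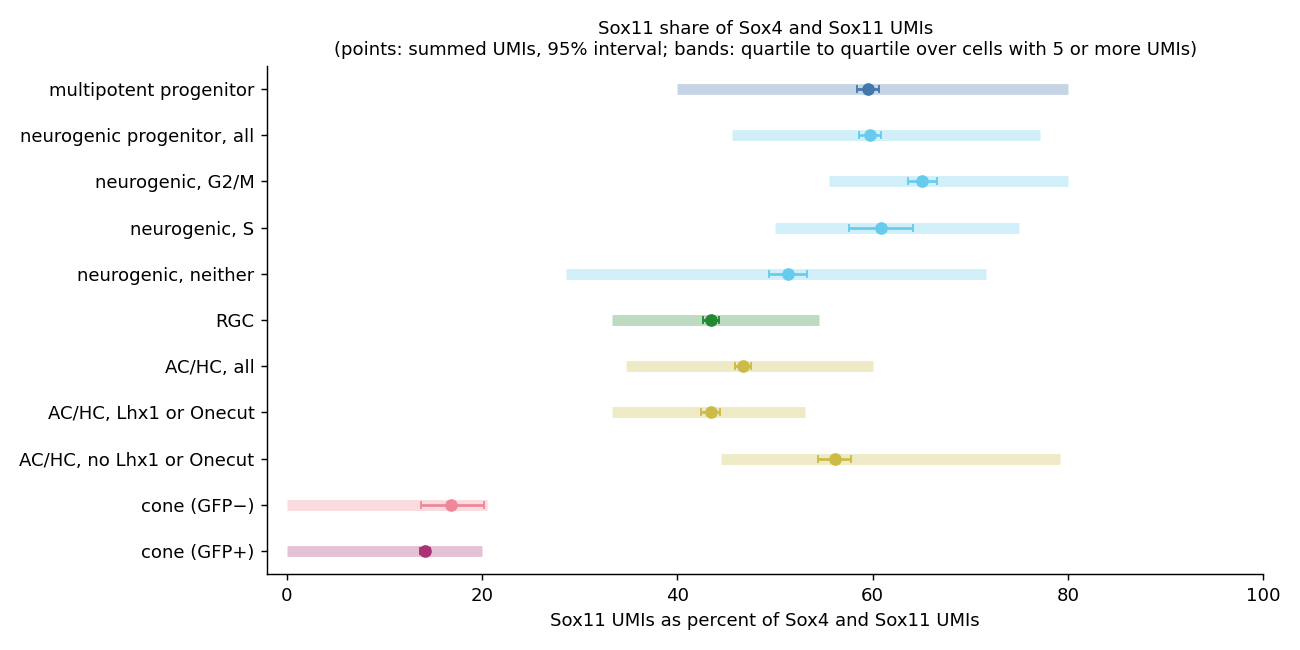
*Sox11* UMIs as percent of *Sox4* and *Sox11* UMIs together, by cell group and sub-group. Points are summed UMIs with 95% exact binomial intervals, and bands run from quartile to quartile over the cells with 5 or more UMIs of the pair; the point is at 59.5% in multipotent RPCs, 43.4% in RGCs and 14.2% in GFP+ cones.

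The balance of the pair, which does not depend on the scaling of a library, differed between cell groups. *Sox11* made up 59.5% (58.4 to 60.6) of *Sox4* and *Sox11* UMIs in multipotent RPCs and 59.8% (58.6 to 60.9) in neurogenic RPCs. The share was 43.4% (42.6 to 44.3) in RGCs, 46.7% (45.9 to 47.6) in AC/HCs, 16.8% (13.8 to 20.3) in GFP− cones and 14.2% (13.7 to 14.7) in GFP+ cones. Cones of both gates lay below every other group, and the GFP− cones stand beside RGCs and AC/HCs of their own library. Across the settings tried, the share lay between 13.9 and 18.8% in the cones of either gate and was 42.7% or more in the 4 other groups.

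The same was seen cell by cell. Among cells with 5 or more UMIs of the pair, the median share of *Sox11* was 60.0% in 709 multipotent RPCs, 62.5% in 498 neurogenic RPCs, 43.8% in 470 RGCs, 44.7% in 372 AC/HCs and 11.1% in 1619 GFP+ cones. These cells were picked by UMIs of the pair itself. In GFP+ cones 3 or more *Sox4* UMIs were found in 61.5% of cells and 3 or more *Sox11* UMIs in 6.23%. The cones that passed did so mainly through *Sox4*, so their median is no separate check on the summed share. After thinning, a *Sox4* UMI was found in 88.8% and a *Sox11* UMI in 37.8% of all GFP+ cones deep enough to thin. Multipotent RPCs had them in 41.7% and 56.4% of cells, RGCs in 94.6% and 94.4%, and AC/HCs in 97.8% and 99.2%. Unthinned, the shares in GFP+ cones were 91.7% and 45.1%.

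Within neurogenic RPCs the balance differed with the UMIs of cell cycle genes. Cells with fewer than 5 UMIs of both the G2/M genes (*Top2a*, *Ube2c*, *Cdc20*, *Ccnb1*, *Cenpf*, *Mki67*) and the S phase genes (*Mcm2*, *Mcm3*, *Mcm5*, *Mcm6*, *Pcna*), 182 in all, stood at 955 CPM of *Sox4* against 463 CPM in the 321 cells in G2/M and 350 CPM in the 110 in S phase, ratios of 2.06 (1.91 to 2.23) and 2.73 (2.42 to 3.09). *Sox11* stood at 1009, 863 and 544 CPM. *Sox2* went the other way, at 137, 231 and 253 CPM. The *Sox11* share was 51.4% (49.4 to 53.3) in cells below both limits, 65.1% (63.6 to 66.6) in G2/M and 60.9% (57.5 to 64.1) in S phase. Cells below both limits were shallower, with a median of 6982.5 UMIs against 9295 in G2/M and 8539 in S phase. Whether they had left the cycle, and so are precursors more than progenitors, was not tested.

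In multipotent RPCs none of these genes differed 2-fold between phases. *Sox2* stood at 375 CPM in the 326 cells in neither phase, 365 CPM in the 725 in G2/M and 353 CPM in the 689 in S phase. *Sox4* stood at 231, 205 and 160 CPM and *Sox11* at 339, 282 and 259 CPM, both lowest in S phase by less than 2-fold. The *Sox11* share stayed between 57.9 and 61.8%.

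Neurogenic RPCs with a UMI of *Atoh7* (450 cells) were set against the 163 without. The ratios of those with it were 2.25 (2.03 to 2.50) for *Sox4*, 2.41 (2.21 to 2.64) for *Sox11*, 0.582 (0.515 to 0.658) for *Sox2* and 0.487 (0.358 to 0.664) for *Sox9*. With and without a UMI of *Otx2*, the gene that starts the photoreceptor programme, *Sox4* was at 647 and 471 CPM and *Sox11* at 864 and 814 CPM, so the *Sox11* share was 57.2% (55.7 to 58.7) with and 63.3% (61.6 to 65.0) without. Neither was near the share of cones. A UMI of *Olig2* went with ratios of 1.23 and 1.22 and the same share, 59.6 against 59.9%.

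AC/HCs with 3 or more UMIs of *Lhx1*, *Onecut1* and *Onecut2* had 3003 CPM of *Sox4* and 2305 CPM of *Sox11*. Those without had 2071 and 2649.98 CPM. The *Sox11* share was 43.4% (42.5 to 44.4) with and 56.1% (54.5 to 57.8) without, so that AC/HCs without these genes lay nearer to progenitors. Their *Sfrp2*, *Fgf15* and *Hes1* also summed higher, to 554 against 224 CPM. AC/HCs with 3 or more UMIs of those 3 markers had 2791 CPM of *Sox11* and 1589 CPM of *Sox4*. Those with fewer had 2314 and 3000 CPM. The part of these markers in the difference in share was not tested. RGCs with and without *Atoh7* differed less, at 42.2% and 45.6%.

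Both listed targets of group C factors that the files hold were higher in RGCs, AC/HCs and GFP+ cones than in multipotent RPCs, and *Tubb3* was in neurogenic RPCs too. Of all genes, 14.48% were higher in RGCs, 16.1% in AC/HCs, 28.0% in GFP+ cones and 4.82% in neurogenic RPCs. *Tubb3*, neuronal tubulin, stood at 88.2 CPM in multipotent RPCs, 735 in neurogenic RPCs, 5998 in RGCs, 3626 in AC/HCs and 453 in GFP+ cones. *Dcx*, a microtubule protein of young neurons, stood at 2.60, 1.53, 99.3, 82.9 and 49.4 CPM. Over multipotent RPCs, cones had ratios of 5.14 (4.86 to 5.45) and 19.0 (13.9 to 26.6), RGCs 68.0 and 38.2, and AC/HCs 41.1 and 31.9. GFP+ cones were lower than RGCs in both, and lower than AC/HCs in *Tubb3* only, beside 10.8% and 9.95% of all genes. GFP− cones were lower than RGCs and than AC/HCs in both genes. Of the pair, 1 was higher and 1 lower in GFP+ than in GFP− cones, so their cone levels differed with the gate. No share of all genes was taken for the comparisons with GFP− cones.

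*Sox12* (chr2:152393611-152398063, minus strand), the third group C gene, was not called in neurogenic RPCs, RGCs or AC/HCs against multipotent RPCs. It stood at 34.5 CPM (31.7 to 37.5) in multipotent RPCs, 18.7 CPM (15.2 to 22.8) in neurogenic RPCs, 37.7 CPM (32.5 to 43.5) in RGCs, 38.5 CPM (31.4 to 46.9) in AC/HCs, 55.9 CPM (35.0 to 84.6) in GFP− cones and 69.3 CPM (65.1 to 73.6) in GFP+ cones. Neurogenic over multipotent RPCs gave a ratio of 0.543 (0.433 to 0.674), short of 2-fold. The ratios over neurogenic RPCs were 2.01 in RGCs, 2.06 in AC/HCs and 3.70 in GFP+ cones. In GFP+ cones the ratio over multipotent RPCs was 2.01 (1.81 to 2.23), but 1.57 with TMM factors and 0.896 in UMIs per cell, and GFP− cones gave 1.62.

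In RGCs the level of *Sox12* depended on the gene limit. Without it the group grew from 485 to 1019 cells, and *Sox12* stood at 58.1 CPM (54.1 to 62.3), a ratio of 1.71 over multipotent RPCs in place of 1.09 (0.921 to 1.29). *Sox4* in RGCs was then 1411 CPM, *Sox11* 1295 CPM and the *Sox11* share 47.8%. RGCs without *Atoh7* had 49.1 CPM of *Sox12* and those with it 29.7 CPM, a ratio of 1.65 (1.23 to 2.23). A *Sox12* UMI was found after thinning in 20.0% of GFP+ cones, 12.9% of AC/HCs, 10.1% of RGCs, 10.4% of multipotent and 5.43% of neurogenic RPCs. In GFP− cones the share was 10.6% (66 cells), so the higher share was seen in the cones of the GFP+ library only.

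*Sox6* and *Sox5* were genes of few UMIs, and *Sox6* lay mainly in cones. *Sox6* (chr7:115470872-116038796, minus strand, up to 17 exons) had 182 UMIs in 169 GFP+ cones (12.2 CPM, 10.5 to 14.1) and 4 UMIs in 4 of the 72 GFP− cones (10.2 CPM, 2.77 to 26.0). Multipotent RPCs had 8 UMIs (0.495 CPM), neurogenic RPCs 1, RGCs 6 (1.20 CPM) and AC/HCs 2. The ratio of GFP+ cones was 24.6 (12.2 to 57.8) over multipotent RPCs, 10.1 (4.55 to 27.9) over RGCs and 15.8 (4.31 to 131) over AC/HCs, and GFP− cones over multipotent RPCs gave 20.6 (4.53 to 76.7). Cones of both gates were therefore above the other groups, and this held for GFP+ cones in each setting tried.

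*Sox5* (chr6:143828425-144781977, minus strand, overlapped by 5 antisense genes on the other strand) was less confined. It stood at 4.41 CPM (3.41 to 5.61) in GFP+ cones with 66 UMIs, 2.54 CPM in GFP− cones with 1 UMI, 2.41 CPM (1.24 to 4.20) in RGCs and 2.70 CPM (1.09 to 5.56) in AC/HCs. The progenitors had 0.433 CPM (0.174 to 0.892) and 0.764 CPM (0.208 to 1.96). Over multipotent RPCs the ratio was 10.2 (4.68 to 26.3) in GFP+ cones, 5.56 (2.02 to 16.7) in RGCs and 6.23 (1.87 to 20.8) in AC/HCs, so it was higher in each kind of neuron, and its level in GFP+ cones over RGCs was 1.83 (0.982 to 3.72). The ratio in RGCs was 4.78 (0.809 to 32.7) when cells were thinned, and GFP− cones gave 5.87 (0.130 to 45.7), both with intervals that held 1 at few UMIs.

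Between neuron groups few of the 8 genes were called. AC/HCs over RGCs gave 0 higher and 0 lower, against 6.95% and 6.30% of all genes, with *Sox11* nearest at 1.90 (1.83 to 1.96) and *Sox4* at 1.66 (1.61 to 1.71). *Sox6* and *Sox8* had fewer than 10 UMIs in it. GFP+ cones over RGCs gave *Sox6* higher and *Sox11* lower, at 0.135 (0.129 to 0.142), against 24.8% and 10.8% of all genes. GFP+ cones over AC/HCs gave *Sox6* higher and *Sox4* (0.379, 0.368 to 0.390) and *Sox11* (0.0713, 0.0681 to 0.0747) lower, against 19.0% and 9.95% of all genes. GFP+ over GFP− cones, set by the same markers in both libraries, had ratios of 0.900 (0.820 to 0.990) for *Sox4*, 0.733 (0.595 to 0.912) for *Sox11* and 0.711 (0.445 to 1.21) for *Sox2*. The cones of the gates differed in make-up. The cone grouping genes with *Gnat2* and *Lhx4* summed to 1898 CPM in GFP− and 4488 CPM in GFP+ cones. *Fabp7* had 3 or more UMIs in 34 of 72 GFP− and 541 of 3609 GFP+ cones. A *Pcp4* UMI was found in 4 and 392 of them, and an *Opn1sw* UMI in 0 and 154.

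Most marker lists of cell types outside the groups were low, apart from the Müller glia list (*Rlbp1*, *Glul*, *Slc1a3*, *Aqp4*), which stood at 360 CPM in multipotent RPCs, 197 CPM in neurogenic RPCs and 113 to 142 CPM in the neuron groups. The astrocyte and optic stalk list summed to 0.385 to 5.38 CPM over the 6 groups, and the neural crest genes *Sox10* and *Foxd3* had 0 UMIs in these groups but for 2 of *Foxd3* in GFP+ cones. The endothelium list reached 281 CPM in AC/HCs through *Cldn5* alone (272 CPM), with *Cdh5* at 0, and the microglia list 27.8 CPM in GFP+ cones through *C1qa* (27.3 CPM), with *C1qb* and *Csf1r* at 0. The lists of pigment cells, blood and lens stayed at or below 12.7 CPM.

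Over the 6 groups, the genes most like each of the 5 SOX genes that reached 50 CPM were found among 4467 genes by Pearson's r of log2(CPM + 1), as a description over 6 points that share libraries. They were *Mcm4*, *Haus1* and *Rps10* for *Sox2*, *Golga7*, *Snapc3* and *Dnajb6* for *Sox4*, and *Marcksl1*, *Carhsp1* and *Rcn2* for *Sox11*, with r from 0.985 to 0.999. Those of *Sox9*, *Rpl17*, *Rpl36al* and *Rpl30*, were 3 ribosomal protein genes, and those of *Sox12* were *Ergic3*, *Zfp385a* and *Ccdc85b*. With a pseudocount of 10 all 3 remained for *Sox4*, 2 each for *Sox2*, *Sox11* and *Sox12*, and 0 for *Sox9*.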

How the data were processed

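Cells of LHX4::GFP retinas at E14.5, pooled from 2 litters, were sorted into a GFP+ and a GFP− library (10x Chromium 3′ v2). The authors ran Cell Ranger 2.1.1 with the mm10 reference and deposited filtered matrices of raw UMI counts, with no normalization, for 3728 GFP+ cells (16010591 UMIs) and 4445 GFP− cells (46778924 UMIs).

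The study's limits on cells were applied: more than 250 and fewer than 3500 genes, and less than 0.25 of UMIs from mitochondrial genes. The methods print the last limit as a percent, and it was read here as a fraction. Scrublet (scanpy 1.11.5, expected rate 0.03) called 3 GFP+ and 55 GFP− cells doublets, of which 2 and 0 were among the kept cells, and these were left in. Groups were set by marker UMIs as stated with the results, and shares of cells were also taken after thinning each cell to 3200 UMIs, which left out 579 GFP+ and 28 GFP− cells. Summed UMIs have 95% exact Poisson intervals, and shares and ratios have exact binomial (Clopper-Pearson) ones. The ratio intervals were tested on simulated Poisson counts, which they assume, so the test does not cover spread between cells. That spread was wider for *Sox4* in thinned AC/HCs, with a mean of 8.84 and a variance of 27.4 UMIs per cell. The intervals can therefore be too narrow. Background shares count genes with 10 or more UMIs over both groups.

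All 8 genes are named, with lists of other SOX genes, partners of SOX2 with genes beside it, group C targets and Müller glia genes (*Tead2* and *Sox2ot* not analysed here). A progenitor marker that helped set the multipotent group and a neural crest marker are not reported here and were left out of the lists. The members, lists and groups were chosen with earlier results of these data known. Splits by *Olig2*, *Otx2*, *Lhx1* and *Onecut*, progenitor UMIs and cone genes, *Atoh7* and cell cycle in neurogenic RPCs, the use of GFP− cones in place of GFP+ cones and the motifs were chosen after seeing the data. Alternatives were other filters and thresholds, no called doublets, TMM factors (edgeR 4.0.16), means of per-cell values, UMIs per cell, thinned cells and mixed cells assigned by most UMIs. Positions are from GENCODE on GRCm38, the build of mm10, and promoters from RefSeq, which had an entry for all but *Sox9*. Python 3.11.15, numpy 2.4.6, scipy 1.17.1 and R 4.3.3 were used.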

Additional observations from a re-analysis of the deposited data

How the results depend on the processing

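No paired analysis was possible because each gate gave 1 library and no replicates, and for the same reason no library could be left out. Of 174 recomputed counts of SOX genes called per comparison, 156 stayed within 1.5 times. Of 816 other values, 583 stayed within their interval or limit, 231 moved outside it and 2 reversed. In UMIs per cell without scaling, 1 gene was higher in the GFP+ gate in place of 3, 2 were lower in neurogenic RPCs in place of 1, and 4 were lower in cones against RGCs and against AC/HCs, and *Sox12* reversed, to 0.976 between the gates and 0.896 in cones over multipotent RPCs. That scale moves every gene alike, by -1.08 and -1.16 in log2 in these comparisons. Thinning gave 2 lower in neurogenic RPCs. For AC/HCs over RGCs, groups set at 2 marker UMIs gave 1 higher and 2 lower, at 5 UMIs 2 higher, and on thinned cells 1 higher. For cones over RGCs, where 1 gene was higher and 1 lower, no gene limit, no filter, thinning and means of per-cell values gave 2 higher, groups set at 5 UMIs or on thinned cells also gave 2 higher, and groups set at 2 UMIs gave 3 higher and 3 lower. GFP− cones in place of GFP+ cones gave 2 higher over multipotent RPCs in place of 4, with only 72 cells and no share of all genes to set beside it. An alternative that left 0 UMIs in the denominator gave no ratio (*Sox8*). The causes were not tested.

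TMM factors moved the median log2 ratio of all genes by -0.30 between the gates and by -0.35 for GFP+ cones over multipotent RPCs. Levels of *Sox5*, *Sox6* and *Sox8* rest on few UMIs, and a change within their intervals was not detectable at this depth.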

Other observations

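Among the 3609 GFP+ cones *Sox4* varied little with genes that mark kinds of cones. *Sox5* and *Sox9*, of few UMIs, differed more in some splits. The 154 cones with a UMI of *Opn1sw*, the short wavelength opsin gene, and the 3455 without had 1026 and 1039 CPM of *Sox4*, and the 541 with 3 or more UMIs of *Fabp7* and the 3068 with fewer had 1140.3 and 1015 CPM. *Sox5* stood at 11.1 CPM (7 UMIs) with and 4.11 CPM (59 UMIs) without *Opn1sw*, a ratio of 2.70 (1.04 to 5.92), and at 2.16 and 4.92 CPM with and without *Fabp7*, a ratio of 0.439 (0.155 to 1.01). In the 179 cones with a UMI of *Slc7a3*, *Sox9* stood at 16.8 CPM (13 UMIs) against 8.10 CPM, a ratio of 2.07 (1.07 to 3.68), and the *Sox11* share of *Sox4* and *Sox11* was 19.2% (16.7 to 21.9) against 13.9% (13.4 to 14.4). A UMI of *Pcp4* in 392 cones went with ratios between 0.778 and 1.64 for all 8 genes, each with an interval that held 1 except *Sox11* at 1.17 (1.03 to 1.31). These splits were chosen after seeing the data, and 4 splits of 8 genes were compared.

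The 51 GFP− cells that reached no marker threshold had a *Sox11* share of 56.4% (52.5 to 60.2), which overlaps that of multipotent and neurogenic RPCs. It also overlaps that of AC/HCs without *Lhx1* or *Onecut*, at 56.1% (54.5 to 57.8), so it does not single out progenitors.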
